A study of Mus musculus with 10 samples.

Results

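Interferon response genes are genes that carry the signal of an interferon or are switched on by it. The 9 genes described here are Stat2, Irf9, Irf1, Irf7, Isg15, Ifi27, Ifi35, Xaf1 and Rnf213, out of 35427 genes measured in mouse embryonic stem cells (ESCs). They were chosen by name after several of them had been seen to differ between Tdg+/- and wt ESCs. Their read counts in those lines were thus the values the choice was selected on, and they are given as a description without a test. Irf1, Xaf1, Ifi35 and Rnf213 lie on chromosome 11 and are kept apart from the other 5, because most genes of that chromosome were higher in the Tdg+/- lines. RNA was sequenced from 10 male C57BL/6 ESC lines grown without feeder cells on gelatin in serum-free medium with 2i and LIF: 3 wt lines, 3 lines that had lost 1 allele of Tdg (Tdg+/-) and 4 lines that had lost both (Tdg-/-). No line received a treatment, and none was exposed to an interferon or a virus as far as the labels say. All lines came from 5 matings of Tdg+/- parents timed together, had started on mouse feeder cells, and gave 1 library each, so a value is that of a line and not of an animal. TDG is the glycosylase that cuts oxidised forms of methylcytosine out of DNA during active demethylation.

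Interferons are secreted proteins that warn neighbouring cells of infection. Type I interferons bind a receptor whose kinases JAK1 and TYK2 phosphorylate STAT2, which joins IRF9 in a complex that binds the interferon-stimulated response element (ISRE) of target genes, while interferon gamma acts at a gamma-activated site (GAS). Pluripotent stem cells are known to produce and answer interferon only weakly. RNF213 is a very large ATPase and E3 ubiquitin ligase whose gene is itself induced by interferon.

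The stretches of promoter below are shown because they hold the letters of these elements. The search covered 250 bases before and 50 after the start of each gene in RefSeq's mouse table (build GRCm38.p6), on both strands, for the ISRE core GAAANNGAAA (any base at N) and the GAS core TTCNNNGAA. The table held 10 windows for 8 of the 9 genes and none was used for Ifi27. The ISRE core was found in 2 of these 10 windows and in 3.44% of all 32851 windows, and the GAS core in 2 of 10 and in 8.3% of all. Capitals mark the matched letters, which in Isg15 are 3 overlapping matches of the ISRE core 78 to 57 bases before the start, in Stat2 a match on the opposite strand 222 to 213 bases before it, and in Irf1 a GAS core 90 to 82 bases before it.
Isg15, chr4:156200845-156200926, minus strand: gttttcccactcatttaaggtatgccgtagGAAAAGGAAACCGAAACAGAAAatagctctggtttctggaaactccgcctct
Stat2, chr10:128270248-128270315, plus strand: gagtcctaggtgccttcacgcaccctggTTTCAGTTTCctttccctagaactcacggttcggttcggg
Irf1, chr11:53769894-53769962, plus strand: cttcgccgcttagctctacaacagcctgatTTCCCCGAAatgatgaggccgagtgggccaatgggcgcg
A GAS core was also found in the window of Ifi35, after its start, and is not shown. A match is only a run of letters, and a window without one says only that those letters were not in it.

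The libraries held 31095354 to 39916106 reads in genes. The targeted gene followed the labels. Tdg had 86.4, 91.1 and 93.1 CPM (read counts normalised to TMM-scaled library sizes) in the wt lines, 40.3, 41.9 and 45.9 CPM in the Tdg+/- lines and 7.75, 10.6, 10.3 and 8.49 CPM in the Tdg-/- lines. The 9 ESC markers summed to 7480 to 8090 CPM in the wt lines, 7510 to 8010 in the Tdg+/- lines, 7630 in Tdg-/- line 1 and 9570 to 10500 in Tdg-/- lines 2 to 4. Dppa5a led this sum, with a mean of 3110 CPM in wt and 4340 in Tdg-/- ESCs, and the list was split. Dppa5a, Pou5f1, Tdgf1 and Zfp42 had a higher mean in Tdg-/- than in wt ESCs. Nanog, Sox2, Esrrb, Klf4 and Tfcp2l1 had a lower one. In wt line 1 the median gene of chromosome 16 stood 0.398 above the 10-line median on the log2 scale, which touches the receptor genes below. Tdg-/- line 1 also stood apart, since 10 genes passed the test between Tdg-/- and wt ESCs with it and 3077 without it.

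RNA of the genes that receive and pass on an interferon signal was detected, with almost no RNA of the ligands and a wide range of levels among the interferon-stimulated genes. Whether the cells could receive a signal was not measured. Of 13 interferon ligand genes, 12 had 0 reads in every line and the other, Ifnz, had at most 2. All 6 receptor genes and all 7 genes of JAK kinases and STAT factors reached 20 reads in at least 1 line. Of 57 interferon-stimulated effector genes, 20 stayed under 20 reads in every line and 37 reached that number. Antiviral genes were found in both parts: Ifit1 reached 4 reads, Ifit3 and Ifi44 reached 1 and Mx1 had 0 in every line, while Rsad2 reached 54, Oas1a 1809 and Bst2 2044 reads. The 3 interferon-induced transmembrane genes Ifitm1, Ifitm2 and Ifitm3, which pluripotent cells are known to express, were at a mean of 426, 373 and 302 TPM (a level that takes transcript length into account). The name interferon response genes thus refers to what these genes are known for elsewhere, since the ligands were at or near 0 reads here.

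**Figure D1:**
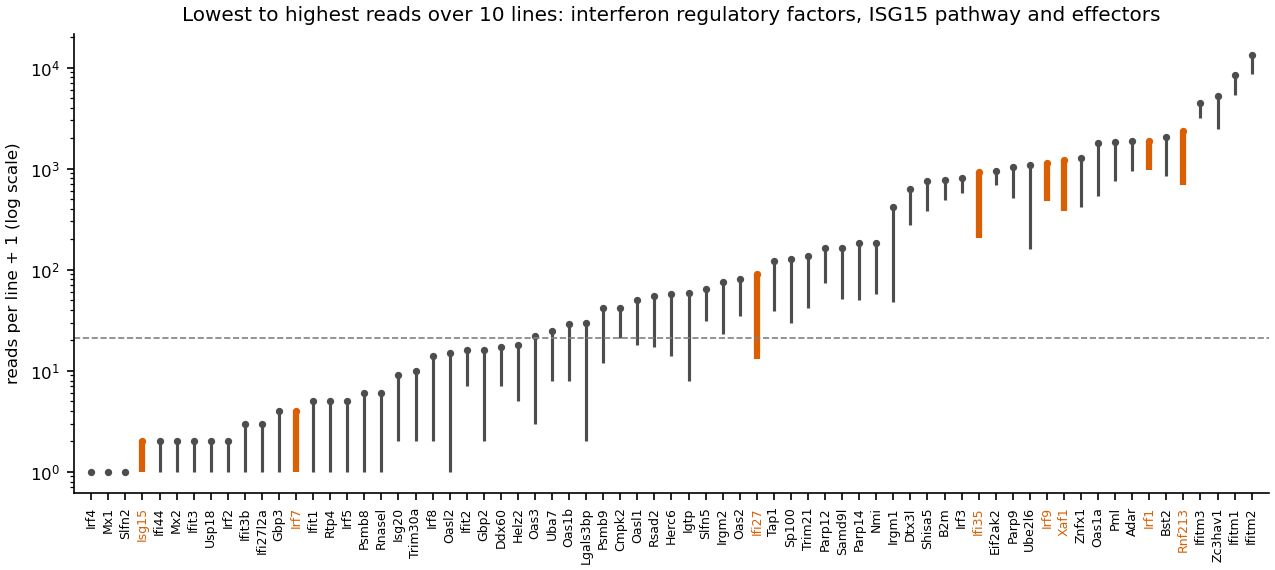
Lowest to highest number of reads over the 10 lines for interferon regulatory factors, genes of ISG15 conjugation and interferon-stimulated effectors, with 1 read added and on a log axis. The 8 genes in orange are members of the set described here that fall in these lists, points mark the highest line, and the dashed line marks 20 reads, the minimum for testing; Isg15 and Irf7 sit at the left end with Mx1, and Rnf213 near the right end.

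Per length of transcript the members covered a wide range of levels. The mean over the 10 lines was 29.5 TPM for Xaf1 (17.1 to 46.5), 19.4 for Irf1 (15 to 24.4), 15.4 for Irf9 (10 to 18.9), 11.8 for Ifi35 (4.93 to 24.6), 5.12 for Stat2 (3.37 to 7.72), 2.89 for Rnf213 (1.03 to 5.35) and 1.62 for Ifi27 (0.467 to 3.41). Each neighbouring pair in this order overlapped in its lines, so the order of neighbours was not clear of their spread. Irf7 and Isg15 were below all of these, at a mean of 0.0647 and 0.00941 TPM, where they overlapped with each other, and no line of Irf7 reached the lowest line of Ifi27. Rnf213 had many reads but a low level per length, since its main transcripts are 16716 bases long.

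Stat2 and Irf9 encode subunits of the complex that binds the ISRE, and the lines of the genotypes overlapped in both. Stat2 (ENSMUSG00000040033, chromosome 10) had 19.7, 15.6 and 14.9 CPM in the wt lines, 19.9, 15.6 and 14.6 CPM in the Tdg+/- lines and 19.3, 11.5, 13.8 and 12.5 CPM in the Tdg-/- lines. Irf9 (ENSMUSG00000002325, chromosome 14) had 14.6, 26.3 and 24.8 CPM in wt, 19.9, 26.2 and 27 CPM in Tdg+/- and 22.2, 26.5, 23 and 25.2 CPM in Tdg-/- ESCs. Line 1 of every genotype was the highest of its group in Stat2 and the lowest of its group in Irf9, and wt line 1 was the lowest of all 10 in Irf9. Irf9 shares part of its locus with Rnf31 on the same strand, and reads of the shared part can be given to either gene.

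Irf1 encodes a transcription factor that interferon gamma induces. Irf1 (ENSMUSG00000018899, chromosome 11) had 36.1, 37 and 30.1 CPM in the wt lines, 38.2, 46.7 and 45.5 CPM in the Tdg+/- lines and 33.9, 44, 33.7 and 45.1 CPM in the Tdg-/- lines. The Tdg+/- lines lay above all wt lines by a narrow margin, and the Tdg-/- lines spanned both groups.

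Irf7, which drives the transcription of type I interferon genes, and Isg15, a ubiquitin-like protein that is attached to other proteins after interferon, were at the limit of detection. Irf7 (ENSMUSG00000025498, chromosome 7) had 15 reads in all, which were 1, 1 and 0 in wt, 2, 1 and 3 in Tdg+/- and 3, 2, 0 and 2 in Tdg-/- lines. Isg15 (ENSMUSG00000035692, chromosome 4) had 0 reads in each wt line, 0, 1 and 1 in the Tdg+/- lines and 0, 1, 1 and 1 in the Tdg-/- lines, 5 in all of 353848247 reads. A line with 0 reads still allows up to 3 reads, which is 0.0723 to 0.094 CPM at these depths and covers counting error only. No difference between genotypes was detectable at this depth and neither gene was tested. Irf7 overlaps Phrf1 on the opposite strand, which had 1044 to 2608 reads in a stranded library.

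Ifi27 encodes a small membrane protein that type I interferon strongly induces. Ifi27 (ENSMUSG00000064215, chromosome 12) had 0.522, 0.486 and 0.376 CPM in the wt lines, 1.85, 2.35 and 1.40 CPM in the Tdg+/- lines and 0.996, 0.937, 0.872 and 1.25 CPM in the Tdg-/- lines. The 3 genotypes did not overlap, with wt lowest, Tdg-/- between and Tdg+/- highest. These are 12 to 18 reads a line in wt, 58 to 90 in Tdg+/- and 31 to 42 in Tdg-/- ESCs, so the separation rests on few reads. They were mostly divided among 3 coding transcripts of nearly equal length in proportions that varied from line to line (0 to 66.9% for the shortest, of 889 bases), and only the sum over transcripts is used here.

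Ifi35 encodes an interferon-induced protein that pairs with NMI. Ifi35 (ENSMUSG00000010358, chromosome 11) had 10.9, 8.62 and 6.43 CPM in the wt lines, 18.3, 24.3 and 17.5 CPM in the Tdg+/- lines and 7.69, 13, 7.68 and 15.7 CPM in the Tdg-/- lines. The Tdg+/- lines lay above all others, and the Tdg-/- lines formed a low pair (lines 1 and 3) and a higher pair (lines 2 and 4).

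Xaf1 encodes a protein that binds the caspase inhibitor XIAP. Xaf1 (ENSMUSG00000040483, chromosome 11) had 11.6, 16 and 15.4 CPM in the wt lines, 22.7, 31.9 and 21 CPM in the Tdg+/- lines and 19.7, 18.9, 19.9 and 24.5 CPM in the Tdg-/- lines. All wt lines lay below all others, and Tdg-/- line 4 lay inside the range of the Tdg+/- lines.

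Rnf213 (ENSMUSG00000070327, chromosome 11) had 30.1, 30.2 and 30.6 CPM in the wt lines, 57.3, 61 and 55.9 CPM in the Tdg+/- lines and 31.7, 18.8, 22.5 and 22.3 CPM in the Tdg-/- lines. The wt lines were nearly identical, every Tdg+/- line lay far above them, and 3 of the 4 Tdg-/- lines lay below them. Tdg-/- line 1 was the exception, just above the wt lines. It was also the Tdg-/- line whose sum of ESC markers was at the wt level (7630 CPM against 9570 to 10500 in the other 3). Dppa5a led that sum, and the list was split, as described above. Its sum of primitive endoderm markers was the highest of the Tdg-/- lines (62.4 CPM against 34 to 39.7). That sum was mostly Lama1, at 31.7 to 59.5 CPM in the Tdg-/- lines. Gata4 had 36 to 59 reads there and Pdgfra 23 to 36, while Gata6 had at most 2, Dab2 at most 4 and Sox17 at most 11. The sum was 48.1 to 55.1 CPM in the wt lines and 46.6 to 73.7 CPM in the Tdg+/- lines, with the highest in line 3. The part of these differences in the level of Rnf213 was not tested. The gene had 682 to 2335 reads a line. Most reads were divided between 2 coding transcripts that are both 16716 bases long, with 40.5% to 98.9% given to the first, and only the sum over transcripts is used.

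**Figure D2:**
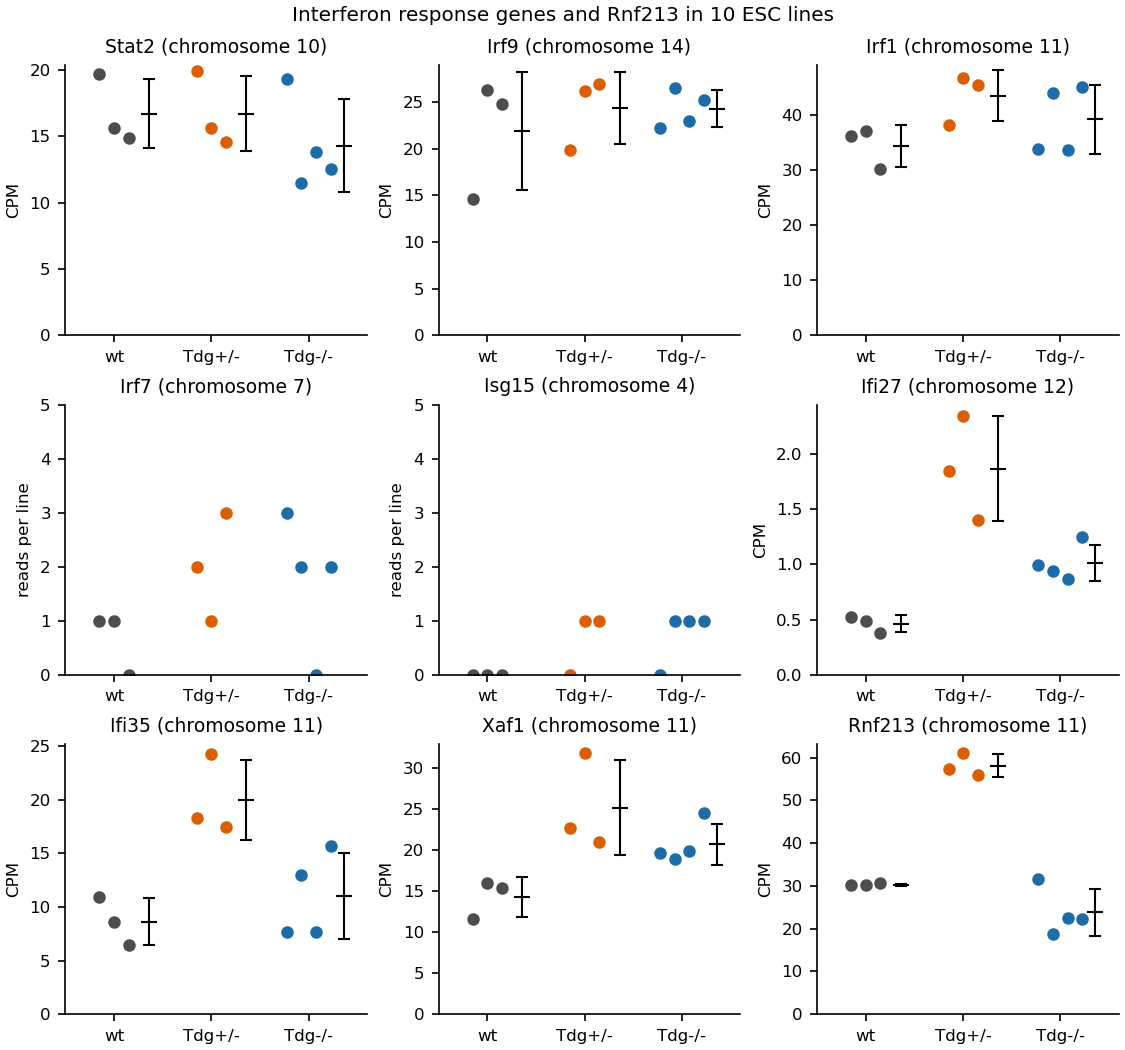
Level of each of the 9 genes in the 10 ESC lines, as CPM from 0 (or as reads per line for Irf7 and Isg15), with 1 point per line and, beside each genotype, the mean and SD over its lines (n = 3, 3 and 4). Ifi27, Ifi35, Xaf1 and Rnf213 are higher in the 3 Tdg+/- lines than in the 3 wt lines, Stat2 and Irf9 overlap, and Irf7 and Isg15 never exceed 3 reads.

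In Tdg+/- against wt ESCs, the comparison that chose the genes, Ifi27 had the largest difference. Its log2 fold change was 2.00 (SE 0.325, the standard error of the fit), that of Ifi35 was 1.20 (0.219), of Rnf213 0.93 (0.105), of Xaf1 0.81 (0.199), of Irf1 0.33 (0.135), of Irf9 0.14 (0.229) and of Stat2 -0.01 (0.169). Of the 7 genes with enough reads to fit, 5 had Tdg+/- lines that all lay above the wt lines, where 12.6% of all 13880 genes did so and 9.09% lay below. Of these 5, Ifi35, Xaf1, Irf1 and Rnf213 lie on chromosome 11, where most genes were higher. The share for that chromosome alone was not counted, so 5 of 7 cannot be read against 12.6% as an excess of the members. Ifi27 reached the minimum of 20 reads only in the Tdg+/- lines. The median of the 4 genes on chromosome 11 was 0.87, beside a median of 0.42 over the 1119 genes of that chromosome. The 3 fitted genes elsewhere had a median of 0.14, beside -0.04 over the 12761 genes off chromosome 11. Among the genes of its own chromosome, Ifi27 was higher than 99.4%, Ifi35 than 97.1%, Rnf213 than 93.4% and Xaf1 than 88.9%, whereas Irf1 was higher than only 36.1%.

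The RNA of chromosome 11 as a whole was higher in the Tdg+/- lines, so the members on it are given beside it. Each gene was set against its own 10-line median, and over the 782 genes of the chromosome with 5 CPM or more the median of these log2 values was -0.091, -0.084 and -0.125 in the wt lines, 0.197, 0.422 and 0.265 in the Tdg+/- lines and -0.031, -0.105, -0.175 and 0.047 in the Tdg-/- lines. After each line's median was taken off, the mean difference between Tdg+/- and wt lines was 0.83 for Ifi35, 0.54 for Rnf213 and 0.41 for Xaf1, and their lines still did not overlap. That of Irf1 was -0.06, with overlapping lines. The value of Xaf1 is limited by its transcripts, which differed in length between lines as described below. In TPM its wt lines (18.1 to 31.2) and Tdg+/- lines (26.5 to 46.5) overlapped. With transcript length as an offset its fitted log2 fold change was 0.49, beside the chromosome median of 0.42 fitted without the offset. Rnf213 lay 0.58 to 0.72 above its chromosome in the Tdg+/- lines and 0.07 to 0.13 above it in the wt lines. Ifi27, taken against chromosome 12 in the same way, kept a difference of 1.91.

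**Figure D3:**
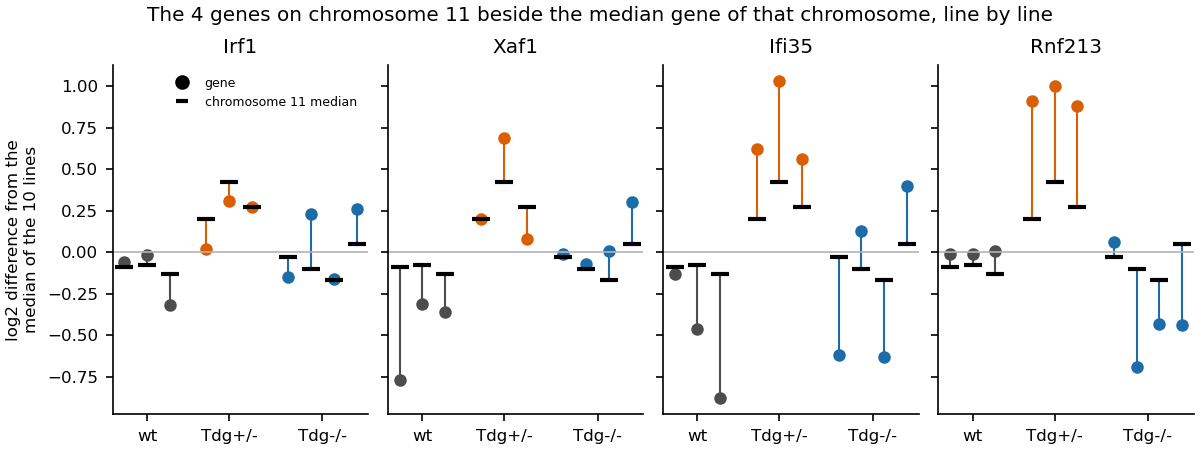
Log2 level of Irf1, Xaf1, Ifi35 and Rnf213 in each line relative to the median of the 10 lines (points), joined to the median of the same quantity over 782 genes of chromosome 11 in that line (black bars), for 3 wt, 3 Tdg+/- and 4 Tdg-/- lines. Rnf213 and Ifi35 stand above the chromosome in all 3 Tdg+/- lines, and Rnf213 stands below it in Tdg-/- lines 2, 3 and 4. Relative to the chromosome, Irf1 lies at -0.2 to 0.06 in the wt lines, -0.18 to 0.01 in the Tdg+/- lines and -0.12 to 0.33 in the Tdg-/- lines.

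The next expressed genes along the chromosome were also compared. Sgsh and Slc26a11, which lie before Rnf213 in gene order, had log2 fold changes of 0.67 (SE 0.26) and 0.68 (SE 0.23) in Tdg+/- against wt ESCs. Of the genes after it, Rptor, a subunit of the mTORC1 kinase complex, had 0.70 (0.144) and Endov 0.09 (0.203). All 4 were below Rnf213, and none passed an adjusted p under 0.05 (adjusted p = 0.0967 for Rptor and 0.2 or more for the others, edgeR), while DESeq2 called Rptor higher (adjusted p = 0.00146). Around Ifi27 on chromosome 12, the neighbours Otub2, Ddx24, Ppp4r4 and Serpina3i had -0.58, 0.24, -0.03 and -0.17, with overlapping lines in each.

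The comparison of Tdg-/- with wt ESCs was tested, although it is not independent of the choice. It uses the wt lines on which the genes were seen to differ, and genes noticed for low wt values lean towards higher values in Tdg-/- lines too. Ifi27 entered the test only through its Tdg-/- lines, since no wt line reached 20 reads, so its p gives no support. No member passed the threshold among 13926 genes, where 0.0718% of all genes did (10 genes by edgeR's quasi-likelihood test, Benjamini-Hochberg adjusted p under 0.05). At an unadjusted p under 0.05 there were 2 members, Ifi27 and Xaf1, both higher, beside 9.13% of all genes higher and 6.79% lower, and DESeq2 called 0 members, beside 0.381% of all genes higher and 0.288% lower. The largest value was that of Ifi27, 1.15 on the log2 scale (SE 0.296, edgeR adjusted p = 0.295), followed by Xaf1 with 0.56 (SE 0.159, edgeR adjusted p = 0.295). In these 2 genes all 4 Tdg-/- lines lay above all 3 wt lines, which 4.47% of all genes did. Rnf213 had -0.33 (SE 0.162, edgeR adjusted p = 0.336), with 3 of 4 Tdg-/- lines below the wt lines. Ifi35 had 0.38 (0.289), Irf1 0.21 (0.151), Irf9 0.17 (0.196) and Stat2 -0.21 (0.189), with adjusted p of 0.451 to 0.634 from edgeR. The 4 members on chromosome 11 had a median of 0.29 beside 0.06 over the 1105 genes of that chromosome.

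This outcome depended on Tdg-/- line 1. Without it Xaf1 passed higher (edgeR adjusted p = 0.0327) and Rnf213 lower, with a log2 fold change of -0.49 (edgeR adjusted p = 0.0172). Ifi27 also fell under the threshold (edgeR adjusted p = 0.032), as a gene that entered only through the genotype in which it is higher. In the same fit 22.1% of all 13897 genes passed, 11.7% higher and 10.5% lower, against 10 genes with the line included. Over all alternatives tried the edgeR or DESeq2 adjusted p ran from 0.032 to 0.622 for Ifi27, from 0.0327 to 0.971 for Xaf1 and from 0.0172 to 0.652 for Rnf213. For Xaf1 a second limit applies, described next with its transcripts.

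The reads of Xaf1 were divided among its transcripts differently from line to line. The long coding transcript of 2597 bases took 61.6%, 47% and 40.8% of the reads in the wt lines, 50.4%, 87.4% and 45.9% in the Tdg+/- lines and 50%, 54.6%, 79% and 85.2% in the Tdg-/- lines. The short coding transcript of 651 bases took 15.4% to 23.6% in wt ESCs, but 0 reads in Tdg+/- line 2 and 4.04% and 4.66% in Tdg-/- lines 3 and 4. The lines with the high share of the long form were thus found in both mutant genotypes and not in all lines of either. A longer transcript gives more reads for the same number of molecules, and with the effective transcript length of each line as an offset the log2 fold change of Xaf1 was 0.49 in place of 0.81 in Tdg+/- against wt and 0.02 in place of 0.56 in Tdg-/- against wt (adjusted p = 0.971 from edgeR). In TPM the wt lines had 18.1, 31.2 and 30.9, the Tdg+/- lines 44.6, 26.5 and 46.5, and the Tdg-/- lines 37.6, 24.5, 17.1 and 18.3. On this scale the wt lines overlapped with the Tdg-/- lines and also with the Tdg+/- lines, through Tdg+/- line 2. Irf1 also moved with the offset, from 0.33 to 0.14 in Tdg+/- and from 0.21 to 0.04 in Tdg-/- against wt.

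**Figure D4:**
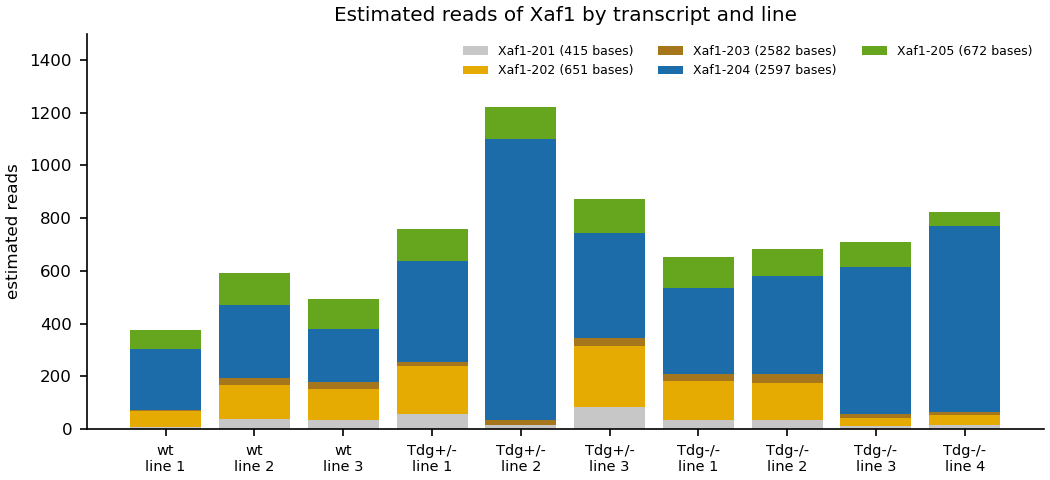
Estimated reads of Xaf1 in each of the 10 lines, stacked by transcript with its length in bases. The long form of 2597 bases (blue) takes 87.4% of the reads in Tdg+/- line 2 and 79% and 85.2% in Tdg-/- lines 3 and 4, where the form of 651 bases (yellow) is small or missing.

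Between Tdg-/- and Tdg+/- ESCs, which shares the Tdg+/- lines with the choice and is again a description, the fitted log2 fold changes were below 0 for all 7 genes. Rnf213 had -1.29 (SE 0.167), Ifi27 -0.88 (0.258), Ifi35 -0.86 (0.259), Xaf1 -0.28 (0.167), Stat2 -0.23 (0.194), Irf1 -0.15 (0.147) and Irf9 -0.01 (0.139). In Rnf213, Ifi27 and Ifi35 all Tdg-/- lines lay below all Tdg+/- lines, which 13.1% of all genes did. The median of chromosome 11 was -0.38, and Rnf213 was lower than all but 1.87% of its genes. The neighbours of Rnf213 had -0.90 (Sgsh, SE 0.248), -0.72 (Slc26a11, SE 0.177), -0.86 (Rptor, SE 0.146) and -0.08 (Endov, SE 0.187). Lines of the 2 genotypes did not overlap in Sgsh, Slc26a11 and Rptor. By edgeR, Rptor (adjusted p = 0.0241) and Slc26a11 (0.0415) passed and Sgsh (0.0513) did not. The 3 comparisons share lines with each other, and their values are set side by side only.

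**Figure D5:**
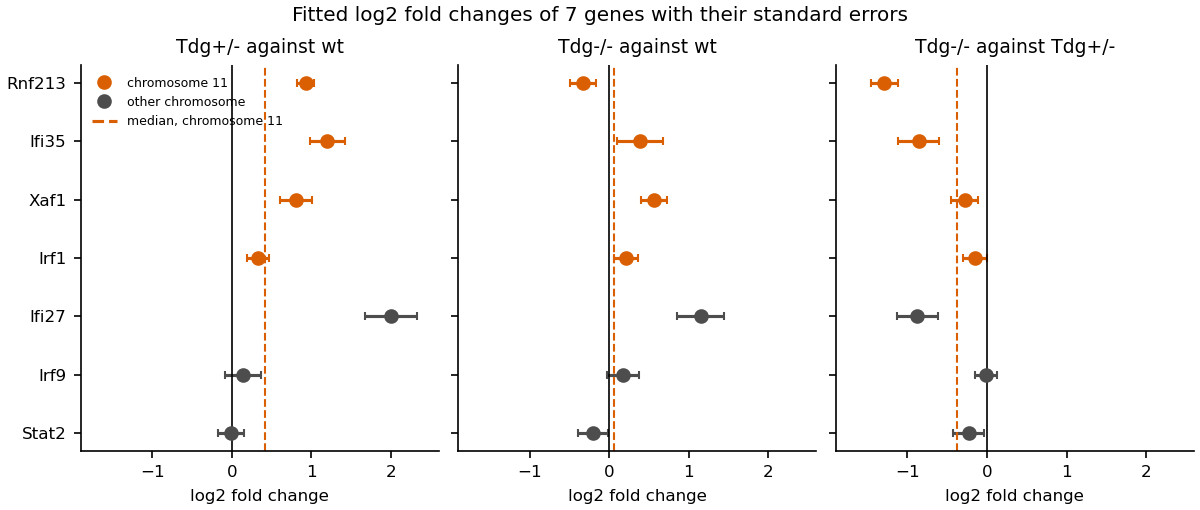
Fitted log2 fold changes of 7 genes in 3 comparisons of genotypes, with bars of 1 standard error, orange for genes on chromosome 11 and grey for others. The dashed line is the median of all tested genes of chromosome 11 (0.42, 0.06 and -0.38 from left to right); Rnf213 changes side between the left panel (0.93) and the others (-0.33 and -1.29), and Ifi27 is the highest in the left and middle panels.

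Markers of other cell types were checked beside these values. The 6 markers of macrophages and blood summed to 9.34 to 13.6 CPM in wt, 13.9 to 20.5 in Tdg+/- and 7.82 to 12.7 in Tdg-/- ESCs, and the 4 endothelial markers to 77.8 to 85.9, 88.4 to 107 and 60.9 to 82.2 CPM. The first sum was almost wholly Cd68 and the second mostly Pecam1, both on chromosome 11. Tek, an endothelial marker on chromosome 4, had a mean of 16.2 CPM in wt (12.8 to 21.9), 20.1 in Tdg+/- (16.7 to 23.3) and 10.4 in Tdg-/- ESCs (8.57 to 13.2). This was the same order of genotypes, with wt lines that overlapped with both mutant genotypes. The leukocyte marker Ptprc had 0 reads in every Tdg+/- line and at most 3 elsewhere, and the endothelial marker Cdh5 at most 2 reads in any line. Feeder fibroblast markers summed to 23.5 to 45.7 CPM in wt, 5.8 to 49.5 in Tdg+/- and 13.2 to 35.2 in Tdg-/- ESCs, and their part in the results was not tested. In a culture measured as a whole, fewer cells that express a gene and less RNA per cell cannot be told apart.

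The genes whose pattern over the 10 lines was most like that of Rnf213, by Pearson's r of log2 CPM among 9635 genes that averaged 5 CPM or more, were Bptf (r = 0.99), the large subunit of the NURF chromatin remodeller, Fanca (0.984), a Fanconi anaemia gene, and Gosr1 (0.979), a Golgi SNARE. Bptf and Gosr1 lie on chromosome 11 and Fanca on chromosome 8. Bptf had 60.4 to 64.8 CPM in wt, 94.1 to 104 in Tdg+/- and 46.6 to 61.3 in Tdg-/- ESCs, with no overlap of Tdg+/- with the others. For Ifi27 they were Sec14l2 (r = 0.954, chromosome 11), Zscan5b (0.953, chromosome 7) and Slc25a11 (0.947, chromosome 11). Zscan5b, a zinc finger gene, had 1.11 to 1.14 CPM in wt, 7.06 to 20.5 in Tdg+/- and 2.11 to 7.51 in Tdg-/- ESCs, the same order of genotypes as in Ifi27. Such likeness between genotypes comes with the choice by r over these same lines and is no separate result. None of these genes is an interferon-stimulated gene of the lists used here, and all points share the libraries and their depth. Isg15, with 0 or 1 read a line, was not compared.

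The rest of the pathway was examined in 9 lists that held 117 genes beside the members. In Tdg+/- against wt ESCs 78 of them were tested and 0 passed an adjusted p under 0.05 from edgeR, where 0.0288% of all genes did. Before adjustment, 11 were higher and 5 lower at p under 0.05, beside 9.55% and 7.41% of all genes. DESeq2 called 5 higher and 1 lower, beside 3.89% and 2.05%. Their median log2 fold change was 0.13, beside -0.02 over all genes. For the 9 on chromosome 11 it was 0.50, beside 0.42 over all tested genes of that chromosome. For the 60 on neither chromosome 11 nor 16 it was 0.13, beside -0.04 over the genes off chromosome 11. In Tdg-/- against wt ESCs 77 were tested and 0 passed (edgeR), where 0.0718% of all genes did. Before adjustment 4 were higher and 2 lower, beside 9.13% and 6.79% of all genes, and DESeq2 called 0, beside 0.381% higher and 0.288% lower. Their median was -0.07 beside -0.01 over all genes. In Tdg-/- against Tdg+/- ESCs 3 rose and 5 fell among 77 (edgeR), beside 3.52% of all genes higher and 5.51% lower. Before adjustment 7 were higher and 18 lower, beside 16.4% and 18.8% of all genes, and DESeq2 called 4 higher and 10 lower, beside 13.6% and 13.5%. Their median was -0.27 beside -0.02 over all genes.

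The 6 receptor genes held 0 calls against wt in either mutant genotype (edgeR). Before adjustment 1 was higher in Tdg+/- and 2 were lower in Tdg-/-, beside 9.55% and 6.79% of all genes. DESeq2 called 1, higher in Tdg+/-, beside 3.89% of all genes. Ifnlr1, the specific chain of the interferon lambda receptor, had 2.30, 2.65 and 1.79 CPM in the wt lines, 4.19, 4.70 and 4.34 CPM in the Tdg+/- lines and 2.56, 1.13, 1.60 and 1.81 CPM in the Tdg-/- lines. The Tdg+/- lines lay above all others, and the gene fell by 1.31 on the log2 scale in Tdg-/- against Tdg+/- ESCs (SE 0.257, edgeR adjusted p = 0.0266). In Tdg+/- against wt it had 0.96 (SE 0.219, edgeR adjusted p = 0.109).

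Ifnar1, Ifnar2, Ifngr2 and Il10rb, which encode chains of the receptors for type I interferon, interferon gamma and interferon lambda, lie together on chromosome 16. Ifnar2 had 14.9, 8.40 and 8.03 CPM in wt, 8.35, 6.71 and 7.23 in Tdg+/- and 7.69, 5.87, 5.88 and 6.83 in Tdg-/- ESCs. Ifngr2 had 10.2, 5.51 and 6.36 CPM in wt, 6.82, 5.96 and 8.36 in Tdg+/- and 5.31, 4.52, 3.97 and 4.19 in Tdg-/- ESCs. In both, wt line 1 was the highest of the 10 lines, the line in which chromosome 16 stood apart.

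Ifngr2 fell in Tdg-/- against Tdg+/- ESCs (-0.65, SE 0.176, edgeR adjusted p = 0.0499). Il10rb was also highest in wt line 1, at 2.58 CPM against 0.549 to 1.99 elsewhere. Ifnar1 ranged from 33.5 to 44.4 CPM and Ifngr1, on chromosome 10, from 2.66 to 3.93 CPM, with overlapping genotypes in both.

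Among JAK kinases and STAT factors, Tyk2, the kinase of the type I receptor, fell in Tdg-/- against Tdg+/- ESCs, from 25.6 to 15.8 CPM (-0.69, SE 0.164, edgeR adjusted p = 0.0388). It was at 18.3 CPM in wt ESCs. Stat3, on chromosome 11, had a mean of 66.6 CPM in wt, 95 in Tdg+/- and 61.8 in Tdg-/- ESCs and passed in no comparison by edgeR (adjusted p = 0.0592 in Tdg-/- against Tdg+/-, where DESeq2 called it lower with an adjusted p of 0.0144). Of the 5 genes of this list that are no members 0 passed against wt (edgeR). Before adjustment 2 were higher in Tdg+/- and 0 in Tdg-/-, beside 9.55% and 9.13% of all genes. DESeq2 called 1, higher in Tdg+/-, beside 3.89% of all genes. The 5 genes had medians of 0.13 in Tdg+/- against wt, -0.19 in Tdg-/- against wt and -0.41 in Tdg-/- against Tdg+/-.

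Among the interferon-stimulated effectors that are no members, 0 of 33 tested passed in Tdg+/- against wt (edgeR), where 0.0288% of all genes did. Before adjustment 6 were higher and 3 lower, beside 9.55% and 7.41% of all genes. DESeq2 called 3 higher and 1 lower, beside 3.89% and 2.05%. Irgm1, an immunity-related GTPase on chromosome 11, had 2.01 on the log2 scale (SE 0.439, edgeR adjusted p = 0.104), at 1.51 to 2.19 CPM in wt and 2.99 to 11 in Tdg+/- lines. Nmi, the partner of IFI35, lies on chromosome 2 and had 1.10 (SE 0.243, edgeR adjusted p = 0.104), at 1.51 to 2.13 and 3.50 to 4.81 CPM. Samd9l, an antiviral factor on chromosome 6, went the other way with -1.06 (SE 0.237, edgeR adjusted p = 0.106), and its lines did not overlap either. In Tdg-/- against Tdg+/- ESCs Samd9l rose (1.08, adjusted p = 0.0397 from edgeR) and the helicase gene Znfx1 fell (-0.96, adjusted p = 0.0358), the only 2 of 32 that passed, beside 3.52% of all genes higher and 5.51% lower.

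The remaining lists held 0 calls against wt, by edgeR or DESeq2. Of 12 tested sensors and adaptors of foreign nucleic acid, 0 passed in any of the 3 comparisons (edgeR or DESeq2), with at most 1 higher and 2 lower before adjustment, the latter in Tdg-/- against Tdg+/-, where 16.4% of all genes were higher and 18.8% lower. In that list Dhx58, a helicase of the RIG-I family on chromosome 11, had the smallest p in Tdg+/- against wt (0.84, adjusted p = 0.249) and Mavs, the mitochondrial adaptor, had 0.23. Irf3, an interferon regulatory factor that is no member, had -0.20 in Tdg+/- against wt, and 3 tested genes of ISG15 conjugation had a median of 0.12, with 0.81 for the ligase Herc6 and 0.12 for the conjugating enzyme Ube2l6. In the lists of regulatory factors and ISG15 conjugation 0 genes beside the members passed in any comparison, by edgeR, by DESeq2 or before adjustment.

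Of 10 tested inhibitors of interferon signaling 0 passed in any comparison (edgeR). Before adjustment 1 was higher in Tdg+/- against wt and 5 were lower in Tdg-/- against Tdg+/-, beside 9.55% and 18.8% of all genes. In Tdg-/- against Tdg+/- DESeq2 called 0 higher and 2 lower, beside 13.6% and 13.5% of all genes. Their medians in the 3 comparisons were 0.21, -0.09 and -0.41. Trex1, a DNA exonuclease, and Socs3, a feedback inhibitor of JAK kinases, had 0.61 and 0.35 in Tdg+/- against wt. Of the 9 genes linked to RNF213 through p97, ubiquitin transfer or lipid droplets, 0 passed in Tdg+/- or Tdg-/- against wt by edgeR or DESeq2. Before adjustment 2 were lower in Tdg+/- and 1 was higher in Tdg-/- against wt, beside 7.41% and 9.13% of all genes. In Tdg-/- against Tdg+/- the ubiquitin-conjugating enzyme genes Ube2d3 (0.46, adjusted p = 0.0488 from edgeR) and Ube2n (0.52, adjusted p = 0.0489) rose and the lipase gene Pnpla2 fell (-0.76, adjusted p = 0.0485). These were 2 higher and 1 lower of 9, beside 3.52% and 5.51% of all genes. Before adjustment 4 were higher and 2 lower, beside 16.4% and 18.8%, and DESeq2 called 3 and 2, beside 13.6% and 13.5%. Ube2d1 had -0.46 in Tdg+/- against wt (adjusted p = 0.232 from edgeR).

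The 8 calls between Tdg-/- and Tdg+/- ESCs lay close to the threshold. Their number was 0 when Tdg+/- line 2 or 3 or Tdg-/- line 2, 3 or 4 was left out, and 26 without Tdg-/- line 1, where 40.6% of all genes passed. The share of all genes that passed in the fits with 0 calls is not given here. A loss of calls particular to the pathway thus cannot be told from a loss among all genes.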

How the data were processed

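Per the labels and the study's methods, stranded total RNA libraries depleted of ribosomal RNA were made, and the authors quantified the reads against GRCm39 transcripts using Salmon 0.8.1. The deposited files hold an estimated count and a TPM value for each transcript, made by the authors without pooling lines. The estimated counts were added up by gene and rounded here, through an annotation of GRCm38 matched by identifier (98.97% of 116357 transcripts; 0.472% to 0.499% of reads unpaired), so no gene coordinates are given. Genes with at least 20 reads in 1 line of a fit entered edgeR 4.0.16's quasi-likelihood test after TMM scaling (R 4.3.3), with Benjamini-Hochberg adjustment over all of them and a threshold of 0.05. Standard errors are the log2 fold change over the root of F. CPM use TMM library sizes, and log2 CPM a prior count of 2. The fit was tested on simulated data. DESeq2 1.42.0 and sva 3.50.0 served as alternatives. Members and lists were chosen with earlier results of these data known. Named genes were the members, the called genes of each list (up to 4 per comparison), otherwise the 2 with the smallest p in Tdg+/- against wt, the receptors, the most alike and the neighbours. Between lines of a genotype the chi-square of the counts was 18.9 to 142 per gene, so none was counted as a repeat. Labels do not tie lines to matings, and p values measure the spread between lines. Some results are not reported here.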

Additional observations from a re-analysis of the deposited data

How the results depend on the processing

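Of the 294 refits of single genes over 21 log2 fold changes, 278 kept their sign, and those that did not were of Stat2 in Tdg+/- against wt and of Irf9 in each comparison. The median of the 4 genes on chromosome 11 (0.87) ran from 0.74 to 0.94 with a line left out. That of the genes elsewhere (0.14) ran from 0.08 to 0.30 and was 1.29 without the filter, which adds Irf7 and Isg15, whose fitted values depend on the prior count. The number of members that passed in Tdg-/- against wt (0) ran from 0 to 3 with a line left out, the 3 without Tdg-/- line 1 and with Ifi27 among them. The other pathway genes that passed were 0 in Tdg+/- against wt, 1 without the filter, 6 with DESeq2, 25 with 3 surrogate variables (a fit in which 27.1% of all genes passed) and 0 to 2 with a line left out, the 2 without Tdg+/- line 1, where 1.5% of all genes passed. In Tdg-/- against wt they were 0, and 0 to 12 with a line left out, the 12 without Tdg-/- line 1, where 22.1% of all genes passed. In Tdg-/- against Tdg+/- they were 8, 3 with transcript lengths as an offset (a fit in which 3.32% of all genes passed), 14 with DESeq2 and 0 to 26 with a line left out. The 26 were without Tdg-/- line 1, where 40.6% of all genes passed. In each case the cause was not tested, beyond the genes that the filter adds.

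Lines of different genotypes share replicate numbers in the labels, but same-numbered lines deviated together only in part (r of 0.163, 0.095 and 0.187 in Tdg-/- against wt, -0.097 to 0.09 in Tdg+/- against wt and -0.206 to 0.053 in Tdg-/- against Tdg+/-). With so few pairs, and no differently numbered pairs beside them, these values cannot show whether same-numbered lines share a batch or a mating. The number was not used in the main fits. With the replicate number as a block, 0 other pathway genes passed in Tdg-/- against Tdg+/- in place of 8, as 6 of all genes did. Genes with few reads, Ifi27 among the tested and Irf7 and Isg15 among the untested, are limited by depth.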
